A study of Mus musculus with 4 samples.

Results

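The ELAVL, RBFOX, NOVA and PTB families of RNA-binding proteins that shape neuronal transcripts were followed through late development of the mouse pontine nucleus: the ELAVL (Hu) proteins Elavl2, Elavl3 and Elavl4, the RBFOX proteins Rbfox1, Rbfox2 and Rbfox3, the NOVA proteins Nova1 and Nova2, and the polypyrimidine tract-binding proteins Ptbp1 and Ptbp2. These 10 genes were taken by name from the 19938 genes that the array's annotation names singly, and where a gene had several probe sets, the one brightest on average over the arrays stood for it. All 10 were among the 10901 genes that reached a log2 level of 8.41 on at least 1 array, the level from which genes were compared. Nova1 and Ptbp1 had 2 probe sets each, and the other genes had 1.

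The tissue was pontine nucleus dissected from ICR mice, an outbred strain, at embryonic day 17.5, abbreviated E17.5, and on postnatal days 1, 5 and 14, abbreviated P1, P5 and P14. The labels name no genotype or treatment for any age. Tissue was pooled from 27 mice at E17.5, 16 at P1, 13 at P5 and 12 at P14, and each pool was hybridised to 1 Affymetrix array. With 1 array per age and 68 mice behind 4 arrays, the spread between animals could not be measured, and every difference given is between single pools with no test.

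ELAVL proteins bind U-rich and AU-rich elements, stabilise many neuronal mRNAs and also act on splicing. RBFOX proteins bind UGCAUG and NOVA proteins bind YCAY clusters in pre-mRNA, and both promote or repress an exon depending on where they bind. PTB proteins bind pyrimidine-rich tracts and mostly repress exons; Ptbp1 is typical of progenitors and non-neuronal cells, where it also represses an exon of Ptbp2 whose skipping leads to decay of that mRNA, while Ptbp2 is typical of young neurons and declines as they mature. The probe sets sum signal along a transcript, so the values describe how much of each regulator's RNA was present and not which exons were used.

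The P5-labelled array stood apart from the other 3. There 9 of 10 young neuron markers were lower than at P1 by 2-fold or more, against 3.94% of all genes. The myelin genes Mbp, Cnp and Cldn11, the 3 of 9 myelinating oligodendrocyte markers that were above the filter level on the P1 array, were higher there by 2.38, 2.97 and 4.83 on the log2 scale; another 4 of the 9 passed the filter through the P5-labelled array alone. The P14-labelled array lay between the P1 and P5-labelled values for 60.5% of genes. The labels are kept as deposited, and the order of these 2 arrays was not tested. Only the comparison of P1 with E17.5 uses neither of them. The pontine transcription factor Barhl1 had log2 levels of 12.23 at E17.5, 11.79 at P1, 10.83 on the P5-labelled and 11.61 on the P14-labelled array, and the vesicular glutamate transporter Slc17a6 was at 11.44, 11.17, 11.57 and 11.49 in the same order. The markers of pontine neurons did not share a profile: the second vesicular glutamate transporter Slc17a7 was at 8.16, 9.38, 12.90 and 11.36, high on the P5-labelled array, whereas the transcription factors Nfib (13.40 at P1 and 12.20 there) and Pax6 (11.03 and 10.01) were low there, the last 2 named after their values were seen.

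All 10 regulators were expressed above the filter on all 4 arrays, with log2 levels from 10.72 to 12.90 at E17.5, 10.50 to 12.96 at P1, 10.33 to 12.50 on the P5-labelled array and 10.47 to 12.77 on the P14-labelled array, where the median of all probe sets on an array lay between 7.89 and 7.94. Of their differences between arrays, only that of Nova2 between the P5-labelled array and E17.5 reached 2-fold. Of the 10 genes, 7 had their lowest level on the P5-labelled array, against 33.7% of all genes, and 7 had their highest level at E17.5, against 37.0% of all genes. Nova2, Rbfox2 and Ptbp2 had the widest ranges of the 10, at 1.02, 0.94 and 0.90 on the log2 scale, and Rbfox3 had the narrowest at 0.19. The median range of the 10 was 0.53, the same as that of all genes past the filter.

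**Figure D1:**
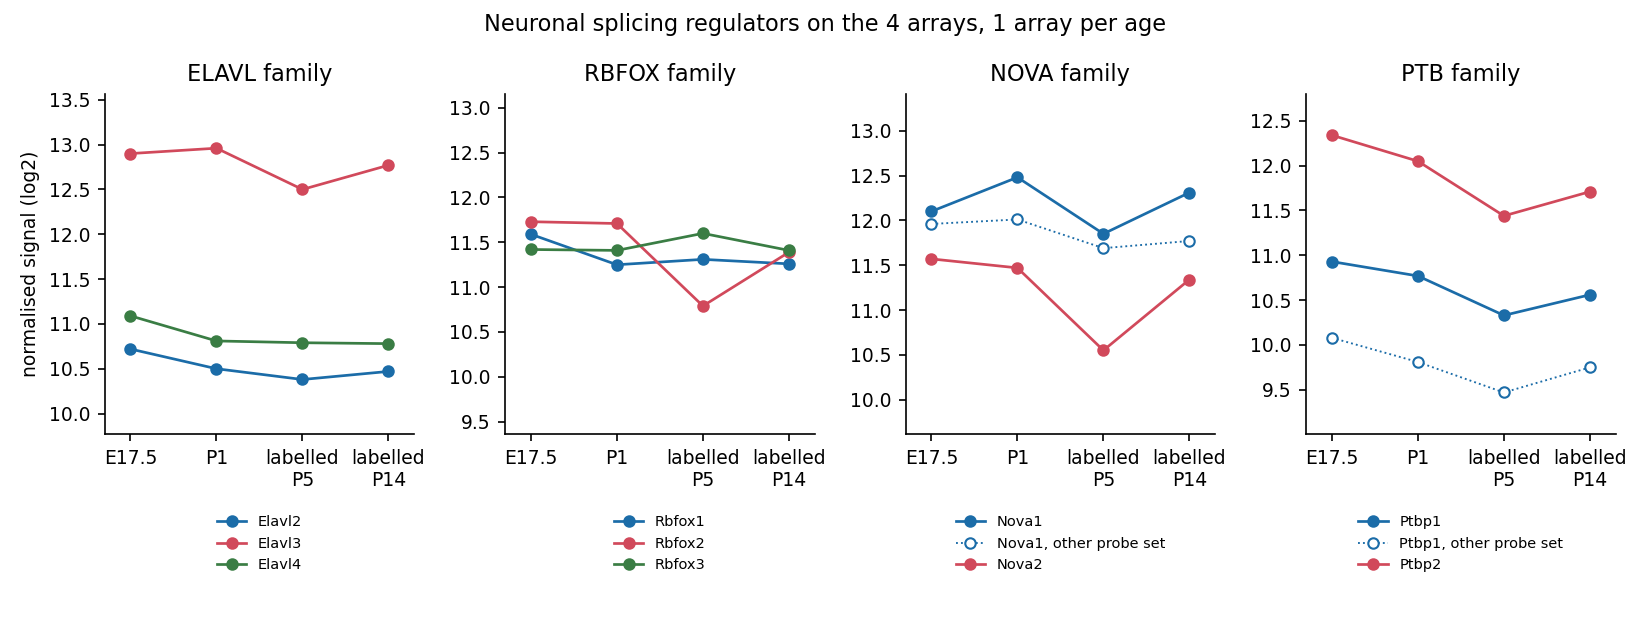
Normalised log2 signal (y axis) of the 10 regulators on the 4 arrays (x axis), 1 panel per family and 1 array per age, with the second probe sets of Nova1 and Ptbp1 as open circles on dotted lines. Elavl2, Elavl3, Rbfox2, both NOVA and both PTB genes have their lowest point on the P5-labelled array, where Rbfox3 has its highest at 11.60. Heights of different probe sets should not be compared with each other.

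Around birth the 10 regulators differed little. Between P1 and E17.5 none of the 10 was 2-fold apart, against 1.1% of all genes, and none was lower by at least 0.5 on the log2 scale, against 3.65% of all genes. The P1 minus E17.5 differences ran from -0.34 for Rbfox1 to 0.38 for Nova1, with a median of -0.13 beside -0.06 for all genes. Of the 10, 8 were below 0, as were 59.8% of all genes.

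Wider differences appeared on the P5-labelled array, first against P1. No regulator was 2-fold apart, against 12.9% of all genes, but Rbfox2, Nova2, Nova1 and Ptbp2 were lower by at least 0.5 on the log2 scale, which makes 4 of 10 against 14.4% of all genes. The count was 3 with the mean of the Nova1 probe sets (-0.47) or with its other probe set (-0.32). The median P5 minus P1 difference of the 10 was -0.45, beside 0.05 for all genes, and 8 of the 10 were below 0, against 45.6% of all genes. Against E17.5, the P5-labelled array was at least 2-fold apart for 1 regulator, Nova2, and for 16.8% of all genes. Nova2, Rbfox2, Ptbp2 and Ptbp1 were lower by at least 0.5 in that comparison, again 4 of 10, against 19.1% of all genes.

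The P14-labelled array lay closer to P1. None of the 10 was 2-fold apart between them, against 1.47% of all genes, and none was lower by at least 0.5, against 1.94%. The median P14 minus P1 difference was -0.15 on the log2 scale, beside -0.01 for all genes. Against the P5-labelled array, none was 2-fold apart, against 6.66% of all genes, and Nova2 and Rbfox2 were higher by at least 0.5 on the P14-labelled array, against 9.48% of all genes. Against E17.5, none was 2-fold apart on the P14-labelled array, against 5.74% of all genes, and Ptbp2 alone of the 10 was lower by at least 0.5, against 11.7%. The P14-labelled array fell between P1 and the P5-labelled array for 8 of the 10 regulators, against 60.5% of all genes. The 8 include Rbfox1, with P14 minus P1 at 0.01 and P14 minus P5 at -0.05, and Elavl2, at -0.03 and 0.09. These steps are smaller than the disagreement between probe sets of 1 gene, given below.

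**Figure D2:**
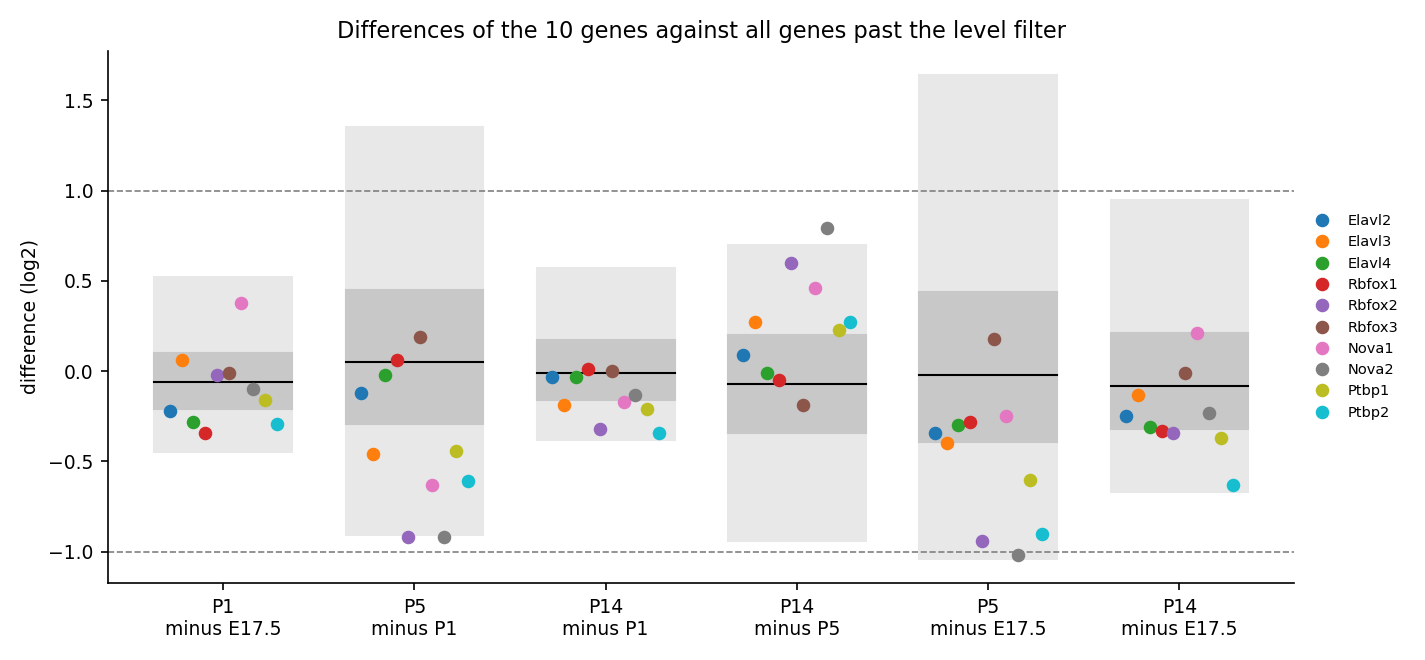
Log2 differences (y axis) of the 10 regulators in the comparisons between arrays (x axis), with all genes past the filter as a black bar at their median, a dark band from percentile 25 to 75 and a pale band from percentile 5 to 95, and with dashed lines at the 2-fold size. Nova2 is the one regulator to reach a dashed line, at -1.02 on the P5-labelled array against E17.5.

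The only error estimate came from how far different probe sets for 1 gene disagreed. Over 645 genes with more than 1 probe set past the filter, the SD of a log2 difference attributable to a probe set was 0.12 for P1 minus E17.5, 0.18 for P5 minus P1, 0.10 for P14 minus P1, 0.14 for P14 minus P5, 0.18 for P5 minus E17.5 and 0.13 for P14 minus E17.5. It holds no spread between animals or pools. Differences under these values are described below as within the probe set spread.

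In the ELAVL family, Elavl3 (HuC), which marks neurons soon after they leave the cell cycle, was at log2 levels of 12.90 at E17.5, 12.96 at P1, 12.50 on the P5-labelled array and 12.77 on the P14-labelled array. The P5-labelled array was low, at 0.46 below P1 on the log2 scale (1.38-fold), and the E17.5 and P1 levels lay within the probe set spread. Elavl2 (HuB) was at 10.72, 10.50, 10.38 and 10.47 in the same order. Its E17.5 array was the highest, 0.34 above the P5-labelled array, and its 3 postnatal arrays lay within 0.12 of each other. Elavl4 (HuD), which stabilises Gap43 mRNA, was at 11.09, 10.81, 10.79 and 10.78. The E17.5 array was 0.28 above P1 on the log2 scale and the 3 postnatal levels were not separated beyond the probe set spread. Elavl2 and Elavl4 thus had their widest step between E17.5 and P1, and Elavl3 between P1 and the P5-labelled array.

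In the RBFOX family the 3 genes had different profiles. Rbfox2, which is also made outside the nervous system, had a level of 11.73 at E17.5, 11.71 at P1, 10.79 on the P5-labelled array and 11.39 on the P14-labelled array on the log2 scale. The P5-labelled array was 0.92 below P1 (1.89-fold), 5.2 times the probe set SD, and 4.92% of all genes had a P5 minus P1 difference at or below that of Rbfox2. Rbfox1, an RBFOX protein of neurons, heart and muscle, was at 11.59, 11.25, 11.31 and 11.26. It was higher at E17.5 than on the 3 postnatal arrays, which lay within 0.06 of each other, and 11.6% of all genes had a P1 minus E17.5 difference at or below its -0.34. Rbfox3, the protein known as NeuN and used to mark mature neurons, was at 11.42, 11.41, 11.60 and 11.41. Its level on the P5-labelled array was 0.19 above P1 on the log2 scale, about 1 probe set SD, and its other 3 arrays lay within 0.01 of each other. On the P5-labelled array, against P1, Rbfox2 was therefore lower, Rbfox1 was within the probe set spread at 0.06, and Rbfox3 was higher by little more than that spread.

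Of the NOVA pair, Nova2, which acts in the developing cortex and in axon guidance, had a level of 11.57 at E17.5, 11.47 at P1, 10.55 on the P5-labelled array and 11.34 on the P14-labelled array on the log2 scale. The P5-labelled array was the low one, 0.92 below P1 (1.89-fold) and 1.02 below E17.5 (2.03-fold). The other 3 arrays spanned 0.23 on the log2 scale, so the range of Nova2 rests on the P5-labelled array. Between the P14-labelled and P5-labelled arrays it differed by 0.79, and 3.91% of all genes had a difference at or above that. Nova1, the NOVA protein of hindbrain and spinal cord, was at 12.10, 12.48, 11.85 and 12.31. P1 was its high array, 0.38 above E17.5 on the log2 scale, 3.2 times the probe set SD. The second Nova1 probe set read 11.96, 12.01, 11.69 and 11.77 and gave 0.05 for the same difference, within the probe set spread. For P5 minus P1 the probe sets gave -0.63 and -0.32, so the P5-labelled array was the low one on both, with a size that depended on the probe set. For P14 minus E17.5 they differed in sign, at 0.21 and -0.19, so no direction is given for Nova1 there.

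Of the PTB pair, Ptbp2, the neuronal member, had a level of 12.34 at E17.5, 12.05 at P1, 11.44 on the P5-labelled array and 11.71 on the P14-labelled array on the log2 scale. The 4 levels of Ptbp2 were each separated from the next by 0.27 or more, with E17.5 the highest and the P5-labelled array the lowest. Ptbp2 was 0.61 lower on the P5-labelled array than at P1 (1.53-fold) and 0.90 lower than at E17.5 (1.87-fold). Without the P5-labelled array, Ptbp2 still had the widest difference among the 10, at 0.63 below E17.5 on the P14-labelled array (1.55-fold), 4.7 times the probe set SD, and 6.06% of all genes lay at or below it. Ptbp1, the member of progenitors and glia, was at 10.93, 10.77, 10.33 and 10.56. Ptbp1 had the same order of arrays as Ptbp2, as did Elavl2, Rbfox2 and Nova2. Some steps in that order were within the probe set spread. They include P14 minus P1 for Elavl2 (-0.03) and P1 minus E17.5 for Rbfox2 (-0.02) and Nova2 (-0.10). The share of all genes with that order was not counted. Ptbp1 was 0.60 lower on the P5-labelled array than at E17.5 (1.52-fold). The second Ptbp1 probe set read 10.08, 9.81, 9.47 and 9.75, again with E17.5 highest and the P5-labelled array lowest, and gave -0.61 for that difference.

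Promoters are shown for Nova2 and Rbfox3, which had the widest and the narrowest range of the 10, and for the PTB pair. Ptbp1 and Ptbp2 had the same order of arrays, which Elavl2, Rbfox2 and Nova2 shared with some steps within the probe set spread. RefSeq sequence of the 250 bases before an annotated start in the mouse build GRCm38.p6 was used for 9 of the 10 genes, all but Rbfox2, in 18 windows. The windows below are given 5′ to 3′ on the gene's strand, with capitals marking matches on either strand to the GC box GGGCGG, the CCAAT box, TATAAA or AAGATGGCG. The last of these, a YY1-type motif, was picked after reading the sequences. The windows lie at chr7:18925638-18925887 on the plus strand for Nova2, chr3:119783389-119783638 on the minus strand for Ptbp2, chr10:79854182-79854431 on the plus strand for Ptbp1 and chr11:118761042-118761291 on the minus strand for Rbfox3.
Nova2: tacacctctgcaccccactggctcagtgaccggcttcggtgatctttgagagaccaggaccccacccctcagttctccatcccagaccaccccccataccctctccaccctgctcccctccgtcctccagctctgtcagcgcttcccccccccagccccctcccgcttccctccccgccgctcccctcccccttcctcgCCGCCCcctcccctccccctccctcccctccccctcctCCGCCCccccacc
Ptbp2: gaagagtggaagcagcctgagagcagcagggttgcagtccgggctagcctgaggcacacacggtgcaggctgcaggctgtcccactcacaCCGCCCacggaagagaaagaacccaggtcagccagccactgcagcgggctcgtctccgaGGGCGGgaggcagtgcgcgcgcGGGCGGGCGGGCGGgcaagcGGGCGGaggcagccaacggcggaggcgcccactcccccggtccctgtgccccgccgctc
Ptbp1: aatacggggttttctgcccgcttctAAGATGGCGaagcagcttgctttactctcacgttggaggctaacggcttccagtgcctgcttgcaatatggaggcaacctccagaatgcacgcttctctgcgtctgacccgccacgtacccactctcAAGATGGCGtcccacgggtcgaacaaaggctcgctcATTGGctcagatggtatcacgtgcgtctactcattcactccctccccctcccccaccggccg
Rbfox3: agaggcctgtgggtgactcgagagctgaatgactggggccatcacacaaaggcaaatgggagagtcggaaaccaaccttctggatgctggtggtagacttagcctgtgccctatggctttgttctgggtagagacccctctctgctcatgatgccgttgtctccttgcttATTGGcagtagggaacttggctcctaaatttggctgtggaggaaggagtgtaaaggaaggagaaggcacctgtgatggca
The Ptbp2 window was GC-rich at 72.4% with 23 CpG dinucleotides and 6 GC boxes, some of them overlapping. The Nova2 window held 71.2% GC, 10 CpG dinucleotides and 2 GC boxes on the opposite strand, in a stretch rich in C and T. The Ptbp1 window held 57.6% GC, 17 CpG dinucleotides, 1 CCAAT box and 2 copies of AAGATGGCG, and the Rbfox3 window held 52.8% GC, 3 CpG dinucleotides and 1 CCAAT box. Over all 32851 RefSeq windows of this length the median was 52.4% GC and 6 CpG dinucleotides, and a GC box was present in 32.7%, a CCAAT box in 33.8%, TATAAA in 12.4% and AAGATGGCG in 0.606%. A match describes letters in the window; which start sites the pontine nucleus uses was not measured.

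Profiles were set against that of Nova2, the one regulator with a range of at least 1, by root mean square distance after each gene's mean over the 4 arrays was removed. The nearest were Micall2 at a distance of 0.023 on the log2 scale, Srgap2 at 0.029 and Tmem120a at 0.029. Srgap2, which acts in neuronal migration and spine maturation, was at log2 levels of 11.87, 11.80, 10.80 and 11.62 from E17.5 to the P14-labelled array. The 4 arrays give few points by which to tell profiles apart.

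The CELF and MBNL families are splicing regulators that also act in muscle and brain maturation. Between the P5-labelled array and P1, Celf3 and Celf5 had more negative differences than any of the 10 genes. Mbnl1 and Mbnl2 had more positive ones, and the other CELF genes lay within the span of the 10. Of 16 CELF, MBNL, STAR and SRRM genes past the filter, 9 were lower and 2 higher by at least 0.5 on the P5-labelled array than at P1, beside 14.4% of all genes lower and 22.9% higher, with a median difference of -0.58. At the 2-fold size 1 was higher, Mbnl2, beside 8.96% of all genes, and 4 were lower, beside 3.94%. These 4 were Celf3, Celf5, Khdrbs2, which was under the filter level on the P5-labelled array, and Srrm4, named after its value was seen. Celf3, a brain CELF protein, was at 12.05, 11.46, 9.76 and 10.97 on the log2 scale, which is 1.70 lower on the P5-labelled array than at P1 (3.25-fold). Celf5 was at 11.63, 11.57, 9.96 and 11.21 in the same order, 1.61 lower in that comparison (3.05-fold). Mbnl2, a muscleblind protein known for splicing patterns of the mature brain, went the other way, at 9.83, 10.20, 12.31 and 11.06, with the P5-labelled array highest and 2.11 above P1 (4.32-fold). Mbnl1 was 0.99 higher there. Of 28 hnRNP and SR proteins, general splicing factors listed without Ptbp1 (hnRNP I), none was 2-fold apart, beside 12.9% of all genes. Of these 28, 9 were lower by at least 0.5 beside 14.4% of all genes, and the median was -0.31. Hnrnpa0 had the lowest difference among them, at -0.78.

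Regulators of mRNA transport, translation and decay, processes in which ELAVL proteins also take part, were spread more widely than the hnRNP and SR genes. Among the 26 that passed the filter, the P5-labelled array exceeded P1 by 2-fold or more for 2, beside 8.96% of all genes, and lay below it by 2-fold or more for 4, beside 3.94%, with a median difference of -0.20 on the log2 scale. The lower 4 were Mex3a, Mex3b, Igf2bp3 and Msi1, the last named after its value was seen. Igf2bp3 was at log2 levels of 8.05 at P1 and 6.65 on the P5-labelled array, both under the filter level, and with the filter on mean level the count was 3. Purb, a single-strand nucleic acid-binding protein found in dendritic RNA granules, was 1.42 higher and Cpeb3, a translational regulator at synapses, was 1.26 higher. Mex3a was at log2 levels of 11.18, 10.81, 7.42 and 9.55, with the P5-labelled array under the filter level. The repressor REST, which silences neuronal genes in other cells, did not pass the filter, and of 9 REST complex and phosphatase genes past it 2 were lower by at least 0.5, Ctdspl and Hdac2, and 1 was higher, Ctdsp1, beside 14.4% of all genes lower and 22.9% higher.

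Between P1 and E17.5, which uses neither the P5-labelled nor the P14-labelled array, fewer genes of these lists passed either size. No hnRNP or SR gene was apart by 0.5 on the log2 scale, and in the CELF and MBNL list only Qk, a regulator of glial RNAs, was higher by that size (0.53) and only Celf3 lower (-0.59), beside 5.28% of all genes higher and 3.65% lower. In the transport and translation list 4 of 26 genes were higher by at least 0.5 and 2 were lower, beside 5.28% and 3.65% of all genes. Among them Cpeb1 was 0.92 and Purb 0.73 higher at P1, while Igf2bp3 was at log2 levels of 9.06 at E17.5 and 8.05 at P1. Igf2bp3, among the lower genes, passed the filter through the E17.5 array alone. Cpeb1 was under the filter level at E17.5, at 8.31, so the size of its difference is inexact. In the REST list 2 of 9 genes were lower by at least 0.5 and 0 were higher, beside 3.65% and 5.28% of all genes. The 2 were the corepressor Rcor2 at -0.93 and the histone deacetylase Hdac2 at -0.55.

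**Figure D3:**
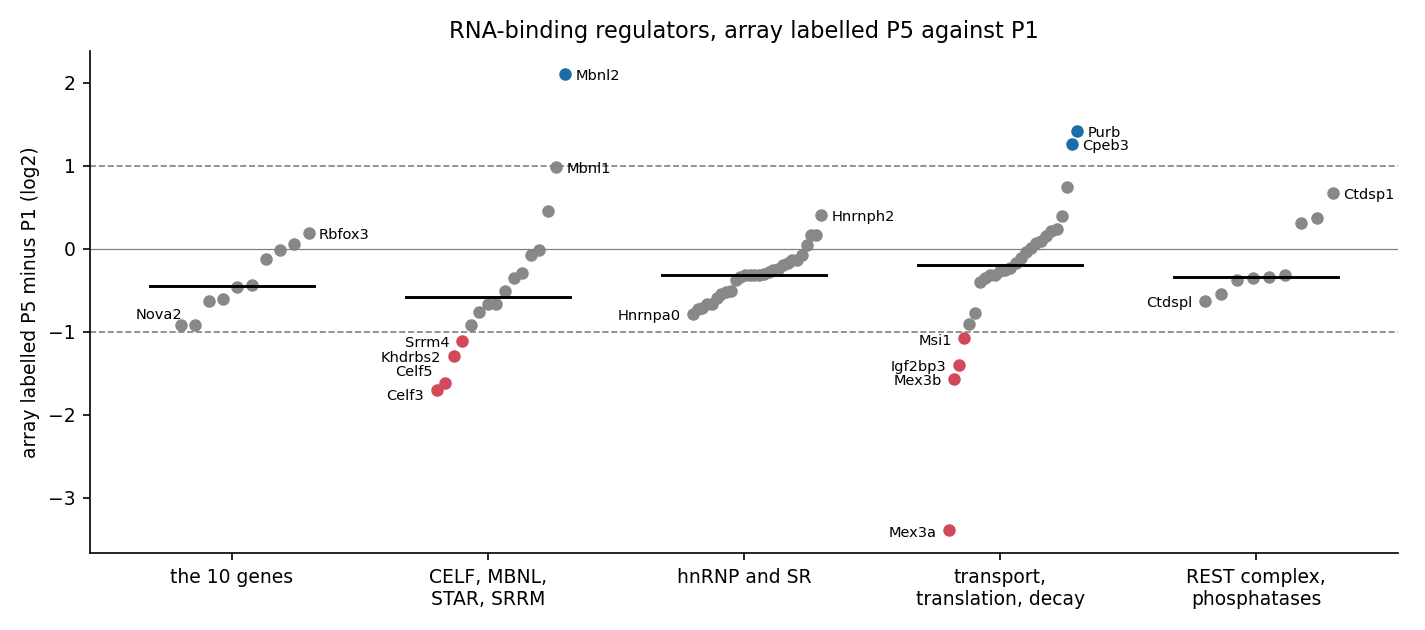
Log2 difference between the P5-labelled array and P1 (y axis) for each gene past the filter in 5 groups of RNA regulators (x axis), with black bars at the group medians and dashed lines at the 2-fold size. The 10 genes stay within the dashed lines, whereas Mbnl2, Purb and Cpeb3 lie above them. Below them lie Celf3, Celf5, Khdrbs2, Srrm4, Mex3a, Mex3b, Igf2bp3 and Msi1.

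Transcripts reported elsewhere as targets of these proteins were also followed. Among the 16 that passed the filter, 2 (Vamp1 and Snap25) exceeded P1 by 2-fold or more on the P5-labelled array and 3 (Glra2, Gap43 and Flna) lay below it by as much, beside 8.96% and 3.94% of all genes, with a median difference of 0.01 on the log2 scale. Gap43 is also on the young neuron list and Snap25 on the pan-neuronal list. Gap43, the growth cone protein whose mRNA Elavl4 stabilises, was at 12.45, 12.62, 10.80 and 12.51, with the P5-labelled array low by 1.82 against P1, while Elavl4 itself differed by -0.02. Glra2, a glycine receptor subunit spliced under NOVA control, was at 12.52, 12.48, 10.39 and 12.00. Its lowest level was on the P5-labelled array, as for Nova2, Nova1 and 33.7% of all genes. Vamp1, a synaptic vesicle protein reported as raised by Rbfox1, was at 8.76, 9.02, 12.40 and 9.62, high on the P5-labelled array by 3.38 against P1, while Rbfox1 differed by 0.06. Dlg4, the postsynaptic scaffold PSD-95 whose mRNA PTB proteins destabilise by repressing an exon, was at 11.92, 11.97, 12.10 and 12.22, all within 0.30 on the log2 scale; it was named after its values were seen. Exon use was not measured, so these are levels of whole transcripts.

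Markers of several cell types moved on the same arrays. In tissue RNA, fewer cells of a type and less RNA per cell cannot be told apart. Relative to P1, the median log2 difference on the P5-labelled array was -1.81 for 10 young neuron markers, 4.83 for 9 myelinating oligodendrocyte markers and 0.62 for 10 pan-neuronal markers. Of the myelinating oligodendrocyte markers, 6 were under the filter level at P1, so the size is inexact, and of the pan-neuronal markers 7 were above 0 and 3 below. The median was -0.66 for 8 pontine neuron markers, 1.56 for 10 astrocyte markers, 0.80 for 9 microglia markers, -0.77 for 7 cell cycle markers and -0.53 for 6 neural progenitor markers. At P1, 5 of the microglia and 2 of the astrocyte markers were under the filter level. In each of these lists and in the neural progenitor list, 1 marker passed the filter through the P5-labelled array alone. Of the young neuron and of the pontine neuron markers, 1 each was under the filter level at P1 and passed through the E17.5 array alone. The medians of all these lists are therefore inexact too. Of the neural progenitor markers 2 were above 0 and 4 below, and of the pontine neuron markers 2 and 6. Dcx, a microtubule protein of migrating neurons, was at 12.97, 12.88, 9.79 and 12.14, and Mbp, a myelin protein, was at 9.35, 10.05, 12.43 and 11.01. The astrocyte filament gene Gfap was at 7.19, 9.89, 12.09 and 11.91, and the proliferation gene Mki67 was at 9.22, 9.24, 8.47 and 9.25. The array on which Nova2, Rbfox2 and Ptbp2 were lowest was thus also the one on which the young neuron markers were lowest and the myelin markers highest. The part of these cell types in the levels of the 10 regulators was not tested.

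**Figure D4:**
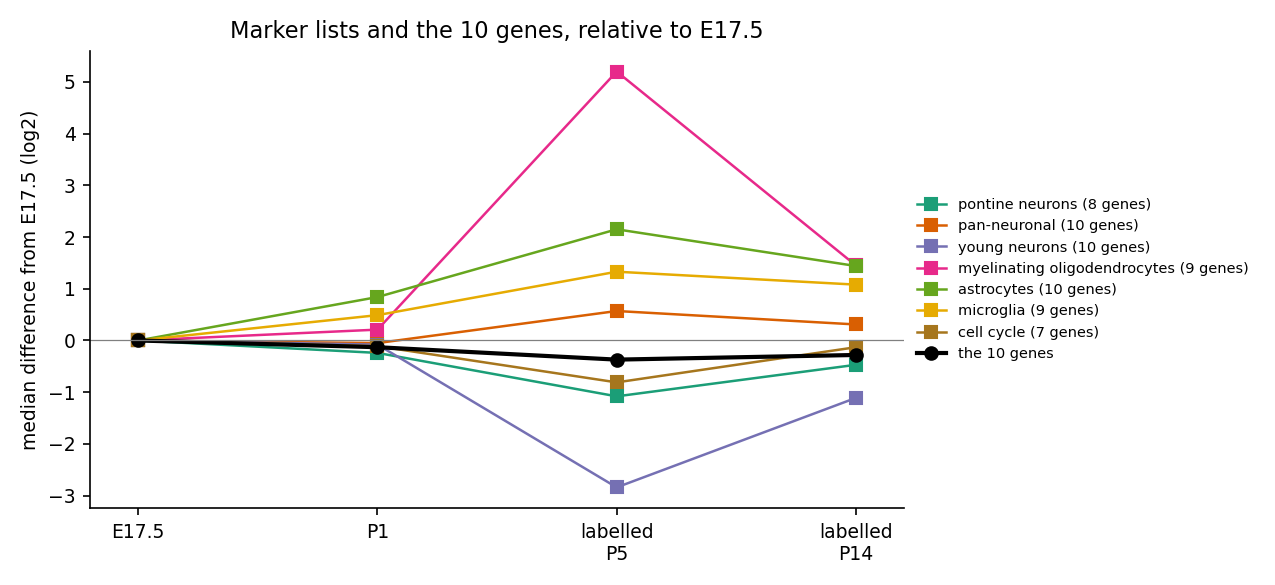
Median log2 difference from E17.5 (y axis) on each array (x axis) for 7 marker lists and, in black, the 10 regulators. On the P5-labelled array the medians lay at 5.20 for myelinating oligodendrocyte markers, -2.84 for young neuron markers and -0.37 for the 10 regulators. The value of 5.20 is inexact, because 4 of those 9 markers passed the filter through the P5-labelled array alone. The value of -2.84 is inexact too, because 1 young neuron marker passed the filter through the E17.5 array alone.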

How the data were processed

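The authors deposited normalised log2 signals per probe set, made with Affymetrix Expression Console per the submitters' processing notes; the values, from 1.84 to 14.72, show the log2 scale, and the program's version, summary method and normalisation were not given in the sources used here. RNA purified with Trizol and then a column, per the labels, became biotin-labelled sense-strand cDNA. Of 35556 probe sets, 23410 were named by the platform's gene table, 21789 with 1 symbol and 1621 with several, which were not used. Entrez identifiers of 21698 were found in RefSeq and 0 symbols were updated. Genes were kept when their highest array reached 8.41, the median over probe sets with a single symbol.

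Differences of log2 values were counted at sizes of 1 (2-fold) and 0.5 (1.41-fold) with Python 3.11.15, numpy 2.4.6 and pandas 2.3.3, after the counting was tested on simulated data. No test was run, and the 1 array per age limits the precision. The genes named besides the 10 were, per list of regulators or targets, up to 3 highest and 3 lowest differences for P5 minus P1 or P1 minus E17.5, the 3 genes nearest to any of the 10 with a range of at least 1, and set markers (Mbp, Gfap, Dcx, Mki67, Barhl1 and Slc17a6); exceptions are stated where they occur. The 10 genes, the lists and the rules were chosen with earlier results of these data known. Alternatives covered the probe set, the scaling, the level filter and the size. Protein identity was not analysed here.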

Additional observations from a re-analysis of the deposited data

How the results depend on the processing

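No paired analysis was possible because each age has 1 array. Counting regulators at a log2 size of at least 0.5 in place of 1 gave 4 for P5 minus P1, 2 for P14 minus P5, 4 for P5 minus E17.5 and 1 for P14 minus E17.5, since a smaller size lets more genes in. At that size the P5 minus P1 count was 3 with the mean over probe sets or the other probe set, where Nova1 drops out. The range of Nova1 was 0.32 on its other probe set. Of 86 counts of regulators, the other 82 stayed within 1.5 times of the value reported or at the same 0. Much of this was fixed in advance. All 10 regulators were above the filter level on all 4 arrays, so changing the filter could not alter these counts. Changing the probe set could act only through Nova1 and Ptbp1, the genes with 2 probe sets. The choice of probe set moved 8 differences, all of Nova1 or Ptbp1, and turned the sign of the small P14 minus E17.5 difference of Nova1 from 0.21 to -0.19. The 2-fold call of Nova2 between the P5-labelled array and E17.5 is at the threshold, at -1.02 as deposited and -1.0 with arrays centred on their medians. The CELF and MBNL list had 2 genes 2-fold higher for P5 minus P1 after that centring, in place of 1. With the filter on mean level, 0 transport and decay genes were 2-fold lower for P1 minus E17.5, in place of 1. Centring moved the median of all genes for P5 minus P1 from 0.05 to 0.11. Choosing probe sets and filter without the P5-labelled array was added after seeing the data. Depth does not apply to arrays; background signal was not measured.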
